A study of Mus musculus with 10 samples.

Results

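The genes described here are 10 that are known from vascular calcification and from the turn of smooth muscle cells towards a bone-like or cartilage-like state: Runx2, Sox9, Msx1, Msx2, Bmp2, Alpl, Enpp1, Ank, Spp1 and Mgp. They were chosen by symbol, and all 10 were found among the 54446 gene rows of the count table and passed the filter on low counts. RNA was sequenced from primary smooth muscle cells of mouse aorta, freed with collagenase and grown to passage 2, in 5 libraries from wild type mice (WT) and 5 libraries from mice that carried both mutant Kit alleles, W and Wv (WWv). The product of Kit, c-Kit, is the tyrosine kinase receptor that binds stem cell factor, and the study asked what changes in these cells when its signalling is lost. The W allele yields a receptor without its transmembrane part and Wv one with a weakened kinase, in every cell of the animal, so WWv cells keep some c-Kit function and come from mice that lacked normal c-Kit throughout life. The labels name no age, sex, strain or culture batch and do not say whether each library came from 1 mouse, so the p-values measure the spread between these libraries.

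Calcification of the vessel wall is a regulated process. Inorganic pyrophosphate outside the cell blocks the growth of calcium phosphate crystals: the enzyme encoded by Enpp1 makes it from ATP, the membrane protein encoded by Ank moves it or its precursor out of the cell, and the alkaline phosphatase encoded by Alpl destroys it. Smooth muscle cells can also switch on the bone regulator gene Runx2, the cartilage regulator gene Sox9 and the homeobox genes Msx1 and Msx2 under bone morphogenetic proteins such as the product of Bmp2, while the secreted proteins of Mgp and Spp1 bind mineral and restrain it.

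Libraries held 42040255 to 53863661 counts. Levels are given as CPM, counts scaled to the library size, after TMM scaling of the libraries, and differences as log2 fold changes of WWv over WT from edgeR's quasi-likelihood test, with p adjusted by the Benjamini-Hochberg method over the 15181 genes tested. A gene is called higher or lower at an adjusted p under 0.05, which held for 28.2% of these genes (12.8% higher and 15.4% lower in WWv). Kit itself measured 3.19, 4.92, 4.07, 4.40 and 4.02 CPM in the WT libraries, replicates 1 to 5, and 2.09, 0.929, 1.71, 3.01 and 2.25 CPM in WWv replicates 1 to 5, lower in every WWv library (log2 fold change −1.04 ± 0.25 SE, edgeR adjusted p = 0.0122), although the level of the transcript does not check which alleles a library carries. Smooth muscle markers were abundant in all libraries: the 8 markers summed to 9955 to 13019 CPM in WT and to 16764 to 20150 CPM in WWv. Of these 8 markers 6 were called higher in WWv and 0 lower (75%, against 28.2% of all tested genes). The library WT 2 stood apart. On the first principal component of log2 CPM, the axis of largest variance (52.5% of it), WT 2 lay at 20.2. The WWv libraries lay there at 11.5 to 33.4 and the other WT libraries at −51.1 to −29.1. On this axis WT 2 was thus on the side of WWv. On the second component (17.3% of the variance) WT 2 lay at −42.9, apart from all other libraries, which lay at −20.2 to 23.1. For Kit (4.92 CPM) and for the smooth muscle sum (10330 CPM) WT 2 was on the side of WT. For Alpl, Enpp1, Ank and Sox9 it was within the range of WWv. Whether the label of WT 2 is right was not tested. In WT 2 the endothelial markers summed to 308.5 CPM, against 52.7 to 91.9 CPM in the other WT libraries and 85.3 to 196 CPM in WWv. Its 7 markers of cycling cells summed to 602 CPM, against 374 to 415 CPM and 474 to 582 CPM. The comparisons of the 10 genes and of the pathway genes called higher or lower are therefore given with and without WT 2. Without it 46.2% of 15423 tested genes were called.

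Of the 10 genes 3 were higher in WWv (Msx2, Enpp1 and Ank) and 2 were lower (Alpl and Sox9), against 12.8% higher and 15.4% lower over all tested genes. Runx2, Bmp2, Msx1, Spp1 and Mgp did not pass. The largest difference was that of Alpl, 4.40-fold lower, and both genes that supply pyrophosphate, Enpp1 and Ank, were higher, by 1.63-fold and 1.42-fold. The median log2 fold change of the 10 genes was 0.26, against −0.01 over all tested genes. Only Msx2 showed no overlap between the groups (15.9% of all tested genes showed none, 8.03% with WWv above and 7.84% with WWv below). When WT 2 was set aside the groups did not overlap for Msx2, Sox9, Alpl, Enpp1 and Ank, and 36.4% of all tested genes then showed no overlap. Without WT 2 there were 3 higher and 3 lower genes, Spp1 being added to those that fell (22.7% of all genes were then called higher and 23.5% lower). Without WWv 1 there were 5 higher genes, with Msx1 and Mgp added (1806 of all 15476 tested genes were then higher). Without WWv 3 there was 1 lower gene, Alpl (1751 of all 15496 tested genes were then lower).

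**Figure D1:**
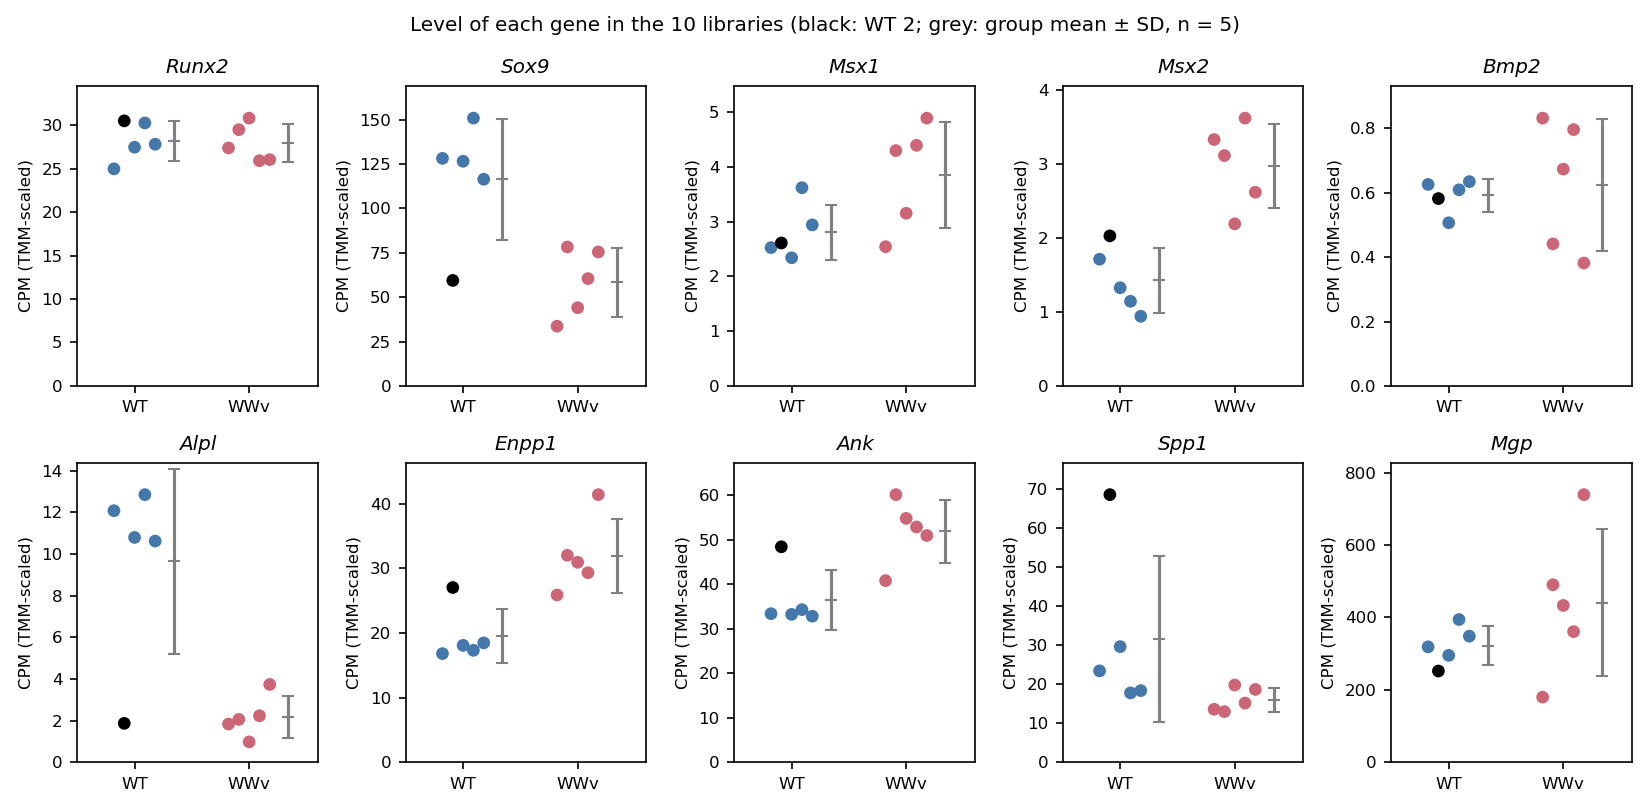
Level of each of the 10 genes in CPM (vertical axis, linear from 0) in the 5 WT and the 5 WWv libraries, 1 point per library in replicate order, WT 2 in black, and the group mean ± SD in grey. The point of WT 2 lies among the WWv points for Alpl, Enpp1, Ank and Sox9 and above all others for Spp1, at 68.7 CPM.

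Alpl encodes tissue-nonspecific alkaline phosphatase, the enzyme that breaks down pyrophosphate and whose activity is a standard marker of mineralizing cells. It lies on chromosome 4 (mm10, 137741733 to 137796384, minus strand, ENSMUSG00000028766.10). It stood at 12.1, 1.88, 10.8, 12.9 and 10.6 CPM in replicates 1 to 5 of WT. The levels in WWv replicates 1 to 5 were 1.84, 2.07, 0.986, 2.24 and 3.74 CPM. Apart from WT 2, whose level lay inside the WWv range, every WT library was above every WWv library by a wide margin. The mean fell from 9.65 ± 4.44 to 2.18 ± 0.999 CPM (SD, n = 5 each; log2 fold change −2.14 ± 0.47 SE, edgeR adjusted p = 0.0078). Without WT 2 the fall was 5.26-fold (−2.40 ± 0.26, edgeR adjusted p = 7.04e-05).

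Enpp1 encodes the ectonucleotidase that cuts ATP into AMP and pyrophosphate, and its loss in humans and mice causes severe arterial calcification (chromosome 10, 24637914 to 24712159, minus strand, ENSMUSG00000037370.13). WT replicates 1 to 5 had 16.8, 27.0, 18.1, 17.3 and 18.5 CPM. WWv replicates 1 to 5 had 25.9, 32.02, 30.9, 29.3 and 41.4 CPM. The groups met only where WT 2 lay just above WWv 1. The mean rose from 19.6 ± 4.23 to 31.9 ± 5.79 CPM (n = 5 each; log2 fold change 0.71 ± 0.15, edgeR adjusted p = 0.0072), and the rise was 1.81-fold without WT 2 (0.86 ± 0.11, edgeR adjusted p = 0.000209).

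Ank encodes the multipass membrane protein of the progressive ankylosis locus (called ANKH in humans), through which cells release pyrophosphate or ATP (chromosome 15, 27466677 to 27594909, plus strand, ENSMUSG00000022265.7). Its levels were 33.4, 48.5, 33.3, 34.3 and 32.9 CPM in replicates 1 to 5 of WT. Those in WWv replicates 1 to 5 were 40.9, 60.2, 54.9, 52.9 and 51.0 CPM. The other WT libraries lay close together, and again WT 2 alone reached into the WWv range, above WWv 1. Ank rose from 36.5 ± 6.72 to 52.0 ± 7.09 CPM (n = 5 each; log2 fold change 0.51 ± 0.13, edgeR adjusted p = 0.0137). Without WT 2 it rose 1.55-fold (0.64 ± 0.09, edgeR adjusted p = 0.000312).

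The levels of Enpp1 and Alpl per kilobase of annotated exon, a scale on which genes can be compared, changed order between the groups. The ratio of Enpp1 to Alpl was 0.530 to 0.684 in the 4 other WT libraries, so Alpl was the more abundant transcript there. In WWv it was 4.35 to 12.3, and in WT 2 it was 5.67. The sum of the cycling markers, like Enpp1 and Ank, was higher in WT 2 and in WWv than in the other WT libraries. With all libraries 2 of these 7 markers were called higher and 0 lower (28.6%, near the 28.2% of all tested genes). Markers of adventitial fibroblasts moved with Alpl: 4 of 7 were lower in WWv and 1 was higher, and their sum was 526 to 664 CPM in the 4 other WT libraries, 403 CPM in WT 2 and 323 to 395 CPM in WWv. Lum, which encodes the matrix proteoglycan lumican, stood at 29.7 ± 19.6 CPM in WT, at 2.63 CPM in WT 2 and at 1.80 ± 0.881 CPM in WWv. Smooth muscle markers were also higher in WWv, at a sum of 16764 to 20150 CPM, but WT 2, at 10330 CPM, lay within the WT range. The part of any of these marker lists in these results was not tested. In bulk RNA fewer cells of a type cannot be told apart from less RNA per cell.

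**Figure D2:**
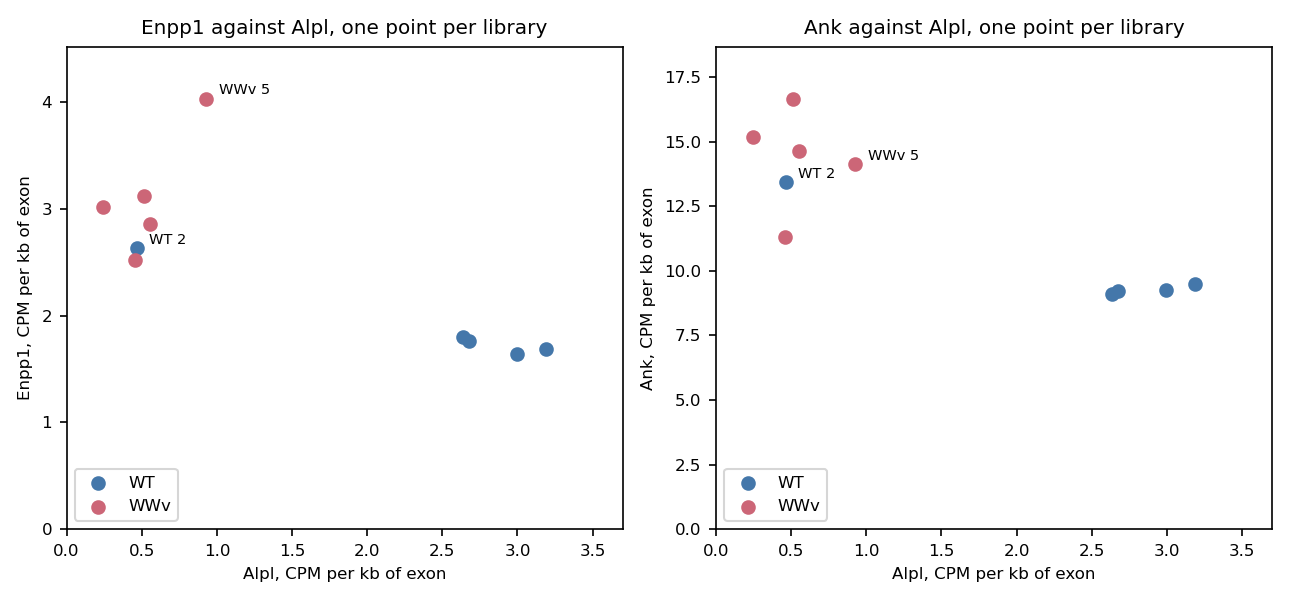
Enpp1 (left) and Ank (right) on the vertical axis against Alpl on the horizontal axis, all in CPM per kilobase of annotated exon, 1 point per library. The 4 other WT libraries lie at the right with Alpl between 2.64 and 3.19, and WT 2 lies among the WWv libraries with Alpl at 0.465.

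The starts of these 3 genes are shown because they code for the opposing arms of pyrophosphate turnover and moved in opposite directions, and that of Spp1 because osteopontin is a classical target of RUNX2. The sequences are the 250 bases before the annotated start, on the strand of the gene, from RefSeq on GRCm38.p6. Of the 10 genes 7 matched the table (Sox9, Bmp2 and Mgp did not), with 9 windows in all. Capitals mark matches, on either strand, to 5 sets of letters: TGTGGT, the core bound by RUNX factors; GGGCGG, the GC box; TATAAA, the TATA box; AACAAT, a SOX core; and TAATTG, a homeobox core. Of all 32851 windows of this length 14.05% hold the RUNX core, 32.7% the GC box, 12.4% the TATA box, 9.42% the SOX core and 7.17% the homeobox core.
Alpl, upstream start, chr4:137796385-137796634, minus strand: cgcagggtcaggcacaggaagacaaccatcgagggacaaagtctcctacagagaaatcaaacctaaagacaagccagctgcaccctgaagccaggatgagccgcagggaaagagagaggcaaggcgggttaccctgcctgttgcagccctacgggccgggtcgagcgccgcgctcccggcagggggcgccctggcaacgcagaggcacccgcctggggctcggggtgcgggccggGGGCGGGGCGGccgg
Alpl, downstream start, chr4:137766476-137766725, minus strand: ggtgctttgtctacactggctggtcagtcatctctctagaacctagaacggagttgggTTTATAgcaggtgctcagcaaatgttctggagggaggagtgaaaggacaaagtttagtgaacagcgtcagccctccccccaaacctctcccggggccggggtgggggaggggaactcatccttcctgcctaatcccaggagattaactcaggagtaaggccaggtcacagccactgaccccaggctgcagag
Enpp1, chr10:24712160-24712409, minus strand: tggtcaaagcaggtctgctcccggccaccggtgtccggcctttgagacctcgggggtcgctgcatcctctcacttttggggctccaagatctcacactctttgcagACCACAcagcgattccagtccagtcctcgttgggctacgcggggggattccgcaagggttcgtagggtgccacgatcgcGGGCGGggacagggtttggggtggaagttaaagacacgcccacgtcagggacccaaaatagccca
Ank, chr15:27466427-27466676, plus strand: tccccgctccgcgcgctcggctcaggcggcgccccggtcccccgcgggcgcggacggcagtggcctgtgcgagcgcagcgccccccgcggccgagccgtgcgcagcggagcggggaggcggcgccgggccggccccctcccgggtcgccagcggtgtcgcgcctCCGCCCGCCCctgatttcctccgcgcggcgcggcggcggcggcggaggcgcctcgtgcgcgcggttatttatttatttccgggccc
Spp1, chr5:104434861-104435110, plus strand: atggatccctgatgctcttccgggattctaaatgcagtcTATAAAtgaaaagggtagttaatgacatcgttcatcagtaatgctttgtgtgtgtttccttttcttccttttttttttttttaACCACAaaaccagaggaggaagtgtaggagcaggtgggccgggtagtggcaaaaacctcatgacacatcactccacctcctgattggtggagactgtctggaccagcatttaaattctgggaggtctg
The window of Ank is 81.2% G and C with 49 CpG pairs, that of Enpp1 61.2% with 17, and the upstream window of Alpl 68.4% with 20, against medians of 52.4% and 6 over all windows. The downstream window of Alpl has 4 CpG pairs and the Spp1 window shown has 3. The Ank and upstream Alpl windows each hold 2 overlapping GC boxes, Enpp1 holds 1 RUNX core and 1 GC box, and the Spp1 window shown holds 1 RUNX core and 1 TATA box. A second Spp1 window, chr5:104435942-104436191, holds 0 matches to any of the 5 sets of letters and is not printed because it lies wholly within an annotated exon. The counts are per gene and do not say which start of Alpl or Spp1 was used.

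Among the regulators of the bone and cartilage programmes, Runx2 was the steadiest of the 10 genes. It encodes the transcription factor required for osteoblast formation (chromosome 17, 44495987 to 44814797, minus strand, ENSMUSG00000039153.16). Its levels were 25.0, 30.5, 27.5, 30.3 and 27.8 CPM in replicates 1 to 5 of WT. The 5 WWv libraries had 27.4, 29.5, 30.8, 25.9 and 26.04 CPM, a range close to that of WT. The log2 fold change was −0.01 ± 0.07, with a 95% interval of −0.17 to 0.14 (edgeR adjusted p = 0.896), that is a WWv to WT ratio between 0.889 and 1.10. Without WT 2 it was 0.02 (95% interval −0.14 to 0.17). Its coefficient of variation was 8.05% in WT and 7.73% in WWv. An antisense gene, Runx2os1, shares 519 of its 8837 exon bases and had 563 counts over all libraries, against 13130 for Runx2.

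Sox9, which encodes the transcription factor that sets up cartilage and drives its matrix genes, lies on chromosome 11 (112782224 to 112787760, plus strand, ENSMUSG00000000567.5). WT replicates 1 to 5 held 128, 59.4, 126.5, 151 and 116 CPM. The WWv libraries held 33.6, 78.3, 44.1, 60.5 and 75.4 CPM. Here too WT 2 lay within the range of WWv, and the other WT libraries lay above it. Sox9 fell from 116 ± 34.2 to 58.4 ± 19.4 CPM (n = 5 each; log2 fold change −0.99 ± 0.27, edgeR adjusted p = 0.0205) and by 1.16 on the log2 scale without WT 2 (edgeR adjusted p = 0.00142). The call was lost without WT 4 (−0.88, adjusted p = 0.0503) or without WWv 3 (−0.91, adjusted p = 0.0531). The fibroblast markers above moved with Sox9 as they did with Alpl, and their part was not tested.

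Msx2 and Msx1 encode related homeobox factors that respond to bone morphogenetic proteins, and Msx2 is known from calcifying arteries. Both were weakly expressed. Msx2 (chromosome 13, 53466884 to 53473074, minus strand, ENSMUSG00000021469.9) stood at 1.71, 2.03, 1.33, 1.14 and 0.940 CPM in replicates 1 to 5 of WT, from 40 to 94 counts. It stood at 3.33, 3.11, 2.19, 3.62 and 2.62 CPM in WWv replicates 1 to 5, from 91 to 168 counts. Every WWv library was above every WT library, WT 2 included (8.03% of all tested genes were higher in every WWv library). Msx2 rose 2.08-fold (log2 fold change 1.05 ± 0.22, edgeR adjusted p = 0.00619), and 2.32-fold without WT 2.

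Msx1 (chromosome 5, 37820485 to 37824583, minus strand, ENSMUSG00000048450.10) had 2.53, 2.61, 2.34, 3.62 and 2.94 CPM in replicates 1 to 5 of WT and 2.54, 4.30, 3.15, 4.39 and 4.89 CPM in WWv replicates 1 to 5. The groups overlapped, mainly through WWv 1 and WT 4. The difference did not pass (log2 fold change 0.46 ± 0.19, 95% interval 0.04 to 0.88, edgeR adjusted p = 0.0944). Without WWv 1 it passed (0.58, adjusted p = 0.0288), and without WT 2 it did not (0.44, adjusted p = 0.101).

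Bmp2, the ligand gene of the group (chromosome 2, 133552159 to 133562885, plus strand, ENSMUSG00000027358.6), was close to the limit of detection. It had 26 to 32 counts in the WT libraries and 19 to 37 in the WWv libraries, that is 0.592 ± 0.0516 and 0.625 ± 0.205 CPM (n = 5 each). The WWv values spread to both sides of the WT values, and whether the spread differed between the groups was not tested. The log2 fold change was 0.08 ± 0.23 with TMM scaling (95% interval −0.44 to 0.59, edgeR adjusted p = 0.835) and −0.0054 with library size only. The interval corresponds to a WWv to WT ratio between 0.738 and 1.51. Without WT 2 the log2 fold change was 0.07 (95% interval −0.50 to 0.64).

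Spp1 encodes osteopontin, a phosphoprotein that binds mineral and is made by smooth muscle cells in the synthetic state and by macrophages (chromosome 5, 104435118 to 104441050, plus strand, ENSMUSG00000029304.14). It stood at 23.5, 68.7, 29.7, 17.8 and 18.4 CPM in replicates 1 to 5 of WT. In WWv the 5 libraries had 13.6, 13.03, 19.8, 15.2 and 18.7 CPM. WT 2 stood far above every other library, and WT 4 and WT 5 lay inside the WWv range. A gene on the same strand, Gm42793, shares 309 of the 1648 exon bases of Spp1. Gm42793 had 13 counts over all libraries, against 11231 for Spp1. The difference did not pass with all libraries (log2 fold change −0.97 ± 0.35, edgeR adjusted p = 0.0579). Without WT 2 it shrank to −0.47 ± 0.17 and passed (edgeR adjusted p = 0.0401), but without both WT 2 and WWv 1 it did not (−0.43, edgeR adjusted p = 0.0703). Leaving out WT 4 or WT 5 instead gave −1.12 each time (edgeR adjusted p of 0.0419 and 0.0439). The 10 macrophage markers summed to 26.7 to 40.9 CPM in the 4 other WT libraries, above the 20.2 to 25.1 CPM of WWv, and to 19.9 CPM in WT 2, where Spp1 was highest. Of the 5 that were tested 3 were lower at an unadjusted p under 0.05 in edgeR, and the smallest adjusted p was 0.0774, for Mrc1. The other 5, among them Adgre1, the gene of the macrophage marker F4/80, were below the filter, with Adgre1 at 0.0940 to 0.448 CPM in WT and 0 to 0.0481 CPM in WWv. Among the tested markers Lyz2 and Csf1r were lower without WT 2 (−0.63 and −0.72, edgeR adjusted p of 0.0052 and 0.0073). Mrc1 and Cd68 did not pass there (−0.90 and −0.31), and Ptprc went the other way (0.37, edgeR adjusted p = 0.412). The part of these markers in the difference of Spp1 was not tested.

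Mgp encodes matrix Gla protein, a vitamin K-dependent inhibitor without which mouse arteries calcify, and it was the most abundant of the 10 genes (chromosome 6, 136872435 to 136875823, minus strand, ENSMUSG00000030218.2). Its levels were 319, 252, 295.5, 394 and 348 CPM in replicates 1 to 5 of WT. They were 180, 490.4, 433, 361 and 739 CPM in WWv replicates 1 to 5. WWv held both the lowest library (WWv 1) and the highest (WWv 5), with a coefficient of variation of 46.2% against 16.7% in WT. The difference did not pass (log2 fold change 0.45 ± 0.29, 95% interval −0.18 to 1.09, edgeR adjusted p = 0.259). It passed without WWv 1 (0.65, adjusted p = 0.0343) and did not without WT 2 (0.38, adjusted p = 0.323).

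**Figure D3:**
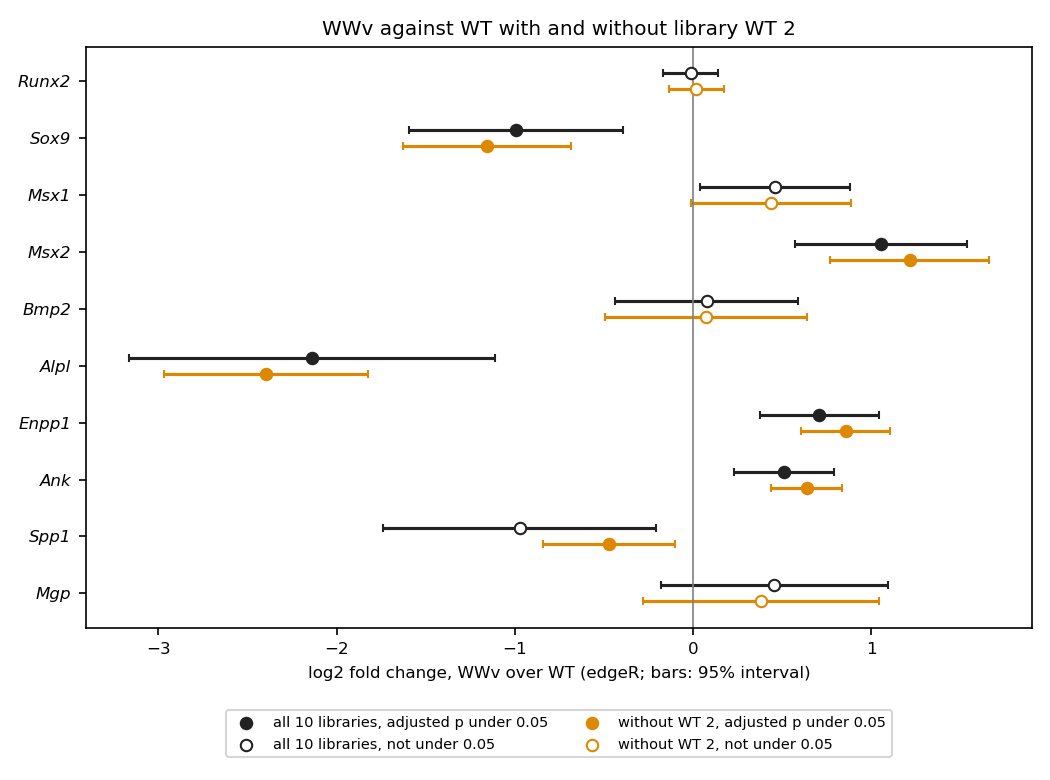
Log2 fold change of WWv over WT for each of the 10 genes (horizontal axis) with its 95% interval, from all 10 libraries (dark) and without WT 2 (orange); filled points have an adjusted p under 0.05. Setting WT 2 aside shortens the interval of Alpl, from between −3.17 and −1.11 to between −2.97 and −1.82, and moves Spp1 from −0.97 to −0.47.

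Ranked by CPM per kilobase of annotated exon, the order in WT was Mgp (271 ± 45.2), Sox9 (28.1 ± 8.27), Spp1 (19.2 ± 12.9), Ank (10.1 ± 1.86), Runx2 (3.19 ± 0.257), Alpl (2.39 ± 1.10), Enpp1 (1.91 ± 0.413), Msx1 (0.906 ± 0.163), Msx2 (0.436 ± 0.134) and Bmp2 (0.166 ± 0.0145), each SD over 5 libraries. Sox9, Spp1 and Ank overlapped with their neighbours in that order, as did Runx2, Alpl and Enpp1. In WWv Alpl moved from position 6 to position 9 (0.539 ± 0.248), below Msx2 (0.907 ± 0.174) though with overlapping ranges, and Ank from position 4 to position 2 (14.4 ± 1.96), level with Sox9 (14.1 ± 4.70). Enpp1 (3.11 ± 0.564) came level with Runx2 (3.16 ± 0.244). Mgp and Bmp2 kept the ends of the order. This scale depends on the annotated exon length, from 1187 bases in Mgp to 10257 in Enpp1.

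The genes whose levels followed each of the 10 most closely over the 10 libraries were found by Pearson's r of log2 CPM among 12567 genes (12568 for Bmp2), a description in which all genes share the same libraries, scaling and group difference. Alpl was closest to Pknox2, a homeobox gene (r = 0.991), Rgp1 (r = 0.987) and Nat9 (r = 0.985). Pknox2 fell from 39.5 to 25.2 CPM. Sox9 was closest to Adgrg2, an adhesion receptor gene (r = 0.984), Rtl3 (r = 0.980) and Frzb, a secreted Wnt antagonist found in cartilage (r = 0.979). Frzb fell from 200.3 to 105 CPM (edgeR adjusted p = 0.0119). Msx2 was closest to Nkain2 (r = 0.983), Timp2 and Fancb, Enpp1 to Slc25a43 (r = 0.976), Bend4 and Fancm, and Ank to Ltn1 (r = 0.980), Tpp2 and Rasa1. For Spp1 they were Fbxo22 (r = 0.982), Fubp1 and Tdg. Runx2 and Bmp2 had no gene above r = 0.875 and r = 0.895.

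Other genes of the same pathways were taken from 6 lists with 106 different genes, of which 80 were tested. Of these 10 were higher and 10 were lower in WWv, together 25.0%, against 28.2% of all tested genes. Without WT 2 the numbers were 17 and 22 of 83 tested, together 47.0%, against 46.2% of all. Ahsg and Col9a2, below the filter with all libraries, were among the 22. They passed the filter there only through their WT levels, with 0 to 8 and 1 to 6 counts in the WWv libraries. The share called was thus close to that of all genes both times. Leaving out any 1 other library gave 6 to 11 higher, with 6 without WWv 2, and 3 to 11 lower, with 3 without WT 1, WT 4 or WWv 3, 4 without WT 5 or WWv 2, and 5 without WT 3 or WWv 4.

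Among 14 other tested osteochondrogenic regulators 1 was higher and 1 was lower (14.3% called, median log2 fold change 0.06). Sox11, a developmental SOX factor, stood at 2.71, 3.30, 3.24, 2.30 and 4.23 CPM in replicates 1 to 5 of WT and at 6.86, 10.4, 11.2, 10.7 and 6.64 CPM in WWv, with no overlap (2.90-fold higher, edgeR adjusted p = 0.000712, and 2.94-fold without WT 2). Sox5, a partner of SOX9 in cartilage, fell by 1.01 ± 0.34 on the log2 scale (edgeR adjusted p = 0.0478), with WT 2 at 1.83 CPM, below the WWv range of 1.87 to 4.22 CPM; it shares 1330 of 14376 exon bases with the antisense gene Sox5os1. Without WT 2 it fell by 1.23. Its call was lost without any 1 of the libraries other than WT 2 and WWv 5, and without WT 2 the list had 4 higher and 2 lower genes; it had 2 higher without WWv 1 or WWv 3. Sp7, the osterix gene that acts after Runx2 in bone, was at 0.740 ± 0.222 and 0.722 ± 0.252 CPM and did not pass, with or without WT 2.

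In the pathway around Bmp2 4 of 24 tested genes were higher and 3 were lower (median 0.00), 29.2% against 28.2% of all tested genes. Acvr1, a type I receptor for bone morphogenetic proteins, rose from 66.1 ± 0.948 to 82.9 ± 5.11 CPM (1.25-fold, edgeR adjusted p = 0.00112), and Smad1, which carries their signal, fell from 44.3 ± 2.97 to 33.7 ± 1.35 CPM (edgeR adjusted p = 0.00100), neither with overlap. Without WT 2 their log2 fold changes were 0.33 and −0.42. Among the secreted antagonists Nog rose by 0.51 ± 0.15, Grem1 fell by 1.02 ± 0.32 and Chrdl1 fell by 1.88 ± 0.60 on the log2 scale (edgeR adjusted p of 0.0274, 0.0339 and 0.0378). Without WT 2 these values were 0.44, −1.09 and −2.05, and all 3 passed. Chrdl1 was near the floor, with 14 to 82 counts in the WT libraries, the most in WT 4, and 1 to 19 in WWv. It passed the filter on low counts only through its WT levels. Grem1 was at 123 CPM in WWv 1, inside the WT range, and at 36.1 to 55.6 CPM in the other WWv libraries. The lower genes numbered 7 without WT 2, and 1 when any of WT 1, WT 3, WT 4 or WWv 2 to WWv 4 was left out.

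Phosphate and pyrophosphate handling had 2 higher and 0 lower of 13 tested genes (median 0.11), and its 15.4% called was below the 28.2% of all genes. At an unadjusted p under 0.05 edgeR gave 4 higher and 0 lower, and DESeq2 and limma-voom also called 0 lower. At least 28.2% of all genes pass that looser threshold too, and the direction of the list was not tested. Xpr1, the phosphate exporter, rose from 62.1 ± 5.92 to 72.4 ± 3.92 CPM (edgeR adjusted p = 0.0322) and lost its call with library size only (0.14, adjusted p = 0.197), upper quartile scaling (0.20, adjusted p = 0.0503) or no low-count filter (0.22, adjusted p = 0.0612), and without any 1 of 7 libraries. Without WT 2 its log2 fold change was 0.27 (adjusted p = 0.00286). Smpd3, a neutral sphingomyelinase gene needed for bone mineralization, rose from 17.998 ± 10.2 to 85.2 ± 19.6 CPM, with WT 2 the highest WT library at 36.05 CPM and no overlap (4.73-fold, edgeR adjusted p = 0.000993). Without WT 2 the rise was 6.32-fold. It shares 247 of 5232 exon bases with Prmt7 on the other strand. Higher genes numbered 5 without WT 2 and 1 without any 1 of 7 other libraries. Among calcification inhibitors and the vitamin K pathway 1 of 10 tested genes was higher, the Wnt antagonist gene Sost, and 2 were lower (30% called, median 0.16). Sost rose from 0.846 ± 0.202 to 15.0 ± 5.79 CPM with no overlap (17.6-fold, edgeR adjusted p = 7.76e-05, and 17.5-fold without WT 2). Ggcx, the carboxylase that activates matrix Gla protein, fell from 57.2 ± 8.61 to 43.9 ± 3.67 CPM (log2 fold change −0.38 ± 0.11, edgeR adjusted p = 0.0216), with WT 2 at 42.1 CPM. Gas6, another vitamin K-dependent protein, fell from 692.5 ± 328 to 329 ± 56.5 CPM (edgeR adjusted p = 0.0346), with WT 2 at 214 CPM, and shares 34 of 2548 exon bases with Tmem255b. Without WT 2 Ggcx fell by 0.47 and Gas6 by 1.30 on the log2 scale. The lower genes numbered 4 without WT 2, 1 without WWv 2 and 0 without WT 1, WT 4, WT 5 or WWv 3. Ahsg, which passed the filter without WT 2 only through its WT levels, was among the 4.

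Osteoblast markers were scarce, while the wider lists of bone and of cartilage genes both ranged from absent to abundant. In the bone list Col1a1 stood at 8908 CPM in WT and 8415 CPM in WWv, and Sparc at 4620 and 5607 CPM. Neither Col1a1 nor Sparc passed, with or without WT 2. Osteocalcin, Bglap, stood at 0.0376 ± 0.0280 CPM in WT and 0.0951 ± 0.0641 in WWv, Mepe had 0 counts in all libraries, and the 6 osteoblast markers summed to 1.06 to 2.86 CPM. The 7 chondrocyte markers summed to 196 to 371 CPM in the 4 other WT libraries, 105 CPM in WT 2 and 75.4 to 278 CPM in WWv. Col2a1, the main cartilage collagen, was at 211 ± 93.6 and 179 ± 81.0 CPM. Acan, the gene of the cartilage proteoglycan aggrecan, was at 14.9 ± 5.35 and 13.97 ± 7.70 CPM, and Comp, a cartilage matrix glycoprotein gene, at 49.2 ± 22.5 and 39.2 ± 6.79 CPM. Fmod, which encodes the collagen-binding fibromodulin, was at 121 ± 60.3 and 59.4 ± 15.5 CPM, and none of these 4 passed with all libraries. Without WT 2 Fmod fell by 1.26 on the log2 scale (edgeR adjusted p = 0.00122), and Col2a1, Acan and Comp did not pass. Col11a1 stood at 208 ± 62.1 and 125 ± 23.8 CPM. Matn1 and Snorc had 0 counts, and 10 of the 20 cartilage genes were below the filter. Of 11 tested bone genes 1 was higher, Tnfrsf11a, the receptor RANK (1.04 ± 0.32, edgeR adjusted p = 0.0335), and 2 were lower, its ligand gene Tnfsf11 (−0.86 ± 0.21, edgeR adjusted p = 0.0123) and the cadherin gene Cdh11 (−0.21 ± 0.07, edgeR adjusted p = 0.0467), with 27.3% called and a median of −0.20. Without WT 2 the values were 0.91, −0.81 and −0.25, and all 3 passed. Tnfrsf11a stood between 0.188 and 1.03 CPM and Tnfsf11 between 0.270 and 0.705 CPM. Of 10 tested cartilage genes Col10a1 was higher (0.69 ± 0.20, edgeR adjusted p = 0.0243), while Col11a1 (−0.74 ± 0.22, edgeR adjusted p = 0.0298) and Prg4 (−1.43 ± 0.36, edgeR adjusted p = 0.0139) were lower, with 30% called and a median of −0.33. Without WT 2 the values were 0.71, −0.91 and −1.66, and all 3 passed. Prg4 shares 204 exon bases with Tpr and Col10a1 shares 18 with Nt5dc1, both on the other strand. Without WT 2 lower genes numbered 4 for bone and 5 for cartilage, and 1 without most other single libraries (all but WWv 5 in both lists). Col9a2, which passed the filter without WT 2 only through its WT levels, was among the 5 cartilage genes. The higher bone genes numbered 0 without WT 1, WT 3, WT 4 or WWv 2 to WWv 5 and 2 without WT 5, and the higher cartilage genes 0 without WT 3, WT 5, WWv 2, WWv 3 or WWv 5.

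**Figure D4:**
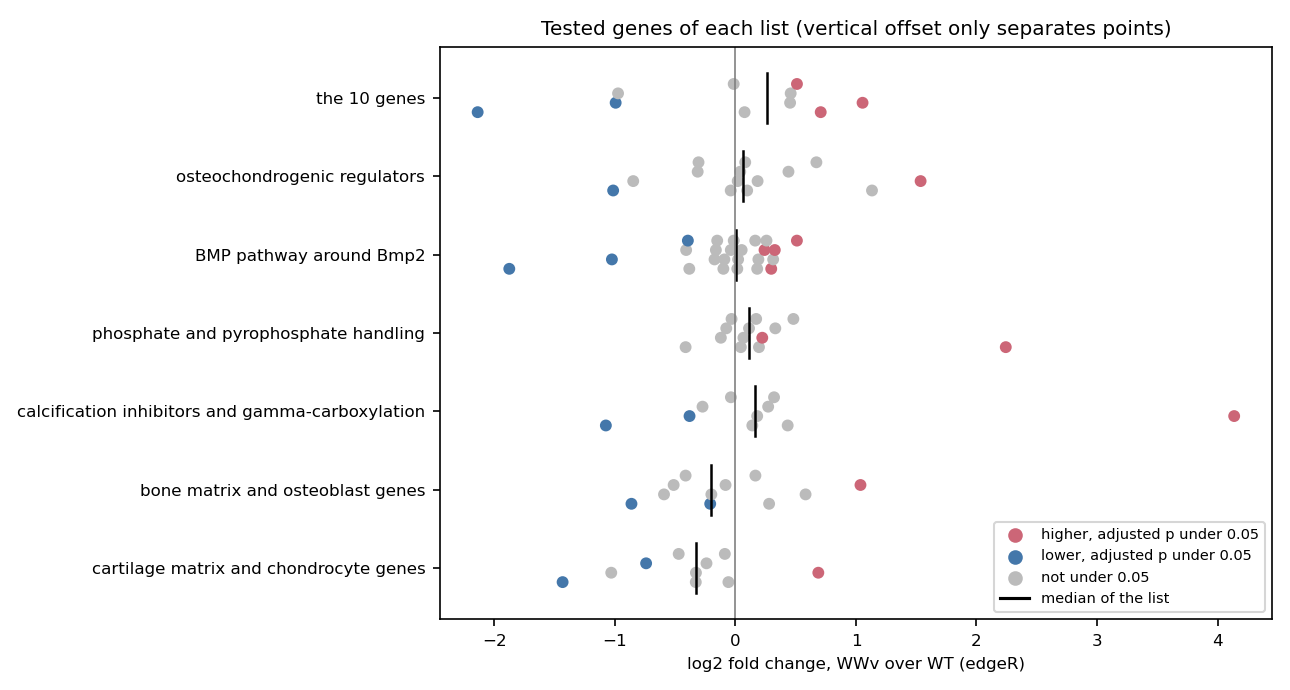
Log2 fold change of WWv over WT (horizontal axis) of every tested gene in the 10 genes and in the 6 pathway lists, with genes called higher in red, genes called lower in blue, others in grey, and a vertical bar at each list's median. The medians lie between −0.33 for cartilage genes and 0.26 for the 10 genes, and the point farthest right is Sost.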

How the data were processed

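Messenger RNA of 5 WT and 5 WWv libraries was analysed. The authors deposited raw counts per gene in whole numbers; per the submitters' processing notes reads were handled with bcl2fastq 2.17, Trim Galore 0.4.3 and STAR 2.5.2a on mm10. No counting tool or strand setting is named, and the annotation release is not given in the sources used here, so genes with overlapping exons are uncertain. Symbols and positions came from GENCODE M21 (GRCm38, 1-based; 54409 IDs matched without version). The counts were fitted in edgeR 4.0.16 (R 4.3.3) with group as the only term, TMM, and filterByExpr at a minimum count of 10; p-values are two-sided. Standard errors are the absolute log2 fold change over the square root of F. Prior count was 2 for log2 CPM. On data simulated for this comparison over 15039 genes, 49.3% of 1.5-fold, 88.1% of 2-fold and 98.5% of 4-fold changes were recovered, with 9 of 166 calls false. The simulation changed 200 genes, drew each gene on its own and held no library that stood apart as WT 2 did. With 28.2% of genes called in the real data, these rates do not carry over to it.

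The 10 genes, the lists and the alternatives were chosen with earlier results of these data known. From each list the rule named up to 5 called genes with the largest change, and for each of the 10 genes the 3 tested genes of at least 1 CPM with the highest r. Named after their values were seen were Sp7, Bglap, Mepe, Col1a1, Sparc, Matn1, Snorc, Col2a1, Acan, Comp, Fmod, Adgre1, Mrc1, Lyz2, Csf1r, Cd68, Ptprc and Lum. Alternatives were RLE, upper quartile or library size only, other filters, a robust fit, DESeq2 1.42.0, limma-voom (3.58.1) with and without quality weights, the replicate number as a block, and libraries left out.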

Additional observations from a re-analysis of the deposited data

Results flagged for a closer look

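In 4 of the 10 genes a single WT library lay far from the other 4, and it was WT 2 each time. Alpl stood at 1.88 CPM in WT 2 against 10.6 to 12.9 CPM in the others, Enpp1 at 27.0 CPM against 16.8 to 18.5 CPM, Ank at 48.5 CPM against 32.9 to 34.3 CPM, and Spp1 at 68.7 CPM against 17.8 to 29.7 CPM. The gap to the nearest library took 0.797, 0.838, 0.906 and 0.767 of the whole range, above the limit of 0.71 for 5 values. In all 22 groups were examined, for the 10 genes and Kit, and chance alone marks about 1 group in 20.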

How the results depend on the processing

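The calls of Alpl, Enpp1, Ank and Msx2 held under every alternative run. Of all tested genes 4274 were called (1940 higher, 2334 lower). Limma-voom with quality weights called 7401 (3595 and 3806), and leaving out WT 2 and WWv 1 gave 7111 (3361 and 3750). Scaling by library size only gave 983 higher and 3599 lower, 21.5% higher against 45.4%, with the median of all genes at −0.09. Leaving out 1 library gave 3013 to 7127 calls, 1286 to 3507 higher and 1721 to 3620 lower, each highest without WT 2; higher calls were 1292 without WWv 2 and 1286 without WWv 4. Among the 10 genes, 3 to 5 were higher and 1 to 3 lower when 1 library was left out, and 5 were higher without WT 2 and WWv 1. Pathway lists then had 20 higher and 21 lower, with quality weights 18 and 19, and with 1 library left out 6 to 17 and 3 to 22. Runx2 changed sign, within its error, to 0.0235 with quality weights and 0.0174 without WT 2 and WWv 1, and ranged from −0.0545 to 0.0173 with 1 library left out. Bmp2 was −0.0054 by library size, −0.0596 without WT 2 and WWv 1, and −0.05003 to 0.209 with 1 library left out. The cause of these shifts was not tested. With the replicate number as a block 3636 genes were called, 3412 of them shared with the same sign, and 1 of the 10 genes was lower, since Sox9 missed the threshold (−1.01, adjusted p = 0.0561). The residual correlations of same-numbered libraries were −0.0920, −0.0129, 0.0368, −0.0712 and 0.308, so the numbers do not pair the samples, and only WT 5 correlated best with its own number. Bmp2, with 19 to 37 counts a library, limits what this depth can show.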
